A study of Danio rerio with 18 samples.

Results

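The sham-operated zebrafish of this series were sampled 4 h and 12 h after surgery, and the 3 arrays at 12 h were compared with the 3 at 4 h, which are 6 of the 18 arrays in all. The arrays were picked by their sample titles, and no measured value was used to choose them. Zebrafish (Danio rerio) are a teleost in which cut spinal axons grow back. Each array held RNA of laser-captured brain tissue with the medial longitudinal fascicle's nucleus (NMLF), midbrain neurons that send axons down the spinal cord. The other arrays came from sham-operated fish at 11 d and from fish with a transected spinal cord at 4 h, 12 h and 11 d, with 3 arrays per group.

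All fish were kept at 28 °C with 14 h of light and 10 h of dark per day. The labels give no strain, genotype, age, clock hour of surgery or sampling, anaesthetic, or account of what the sham operation consisted of. Hours since surgery and time of day therefore cannot be told apart in these samples. The labels do not say whether the 3 samples of a group came from separate animals or from pools, so p-values measure only the spread between these samples. In bulk tissue of this kind, fewer cells of a type and less RNA per cell cannot be told apart.

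The vertebrate circadian clock runs on a feedback loop. Bmal and Clock proteins pair up and switch on the genes of their own repressors, among them the Period and Cryptochrome genes, Ciart and the bHLH repressor Bhlhe40. Rev-erb receptors, the Nr1d genes, are switched on by the same pair and in turn repress bmal genes. In zebrafish, most tissues hold such a clock, and light sets it directly. Cholesterol synthesis, a second theme below, runs from acetyl-CoA through the mevalonate steps to sterols, and its enzymes share control by the transcription factor Srebp2, which Insig proteins hold back when sterols are plentiful.

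The signal given below is the deposited intensity of a probe set after quantile normalization of all 18 arrays, with values under 16 set to 16. Sham arrays of the same time, 4 h or 12 h, correlated at 0.936 to 0.981, and those at 4 h with those at 12 h at 0.946 to 0.977, so the ranges overlapped. Replicate 2 at 4 h had the highest value of all 18 arrays on the first principal component, which held 29.2% of the variance. Its value was 48.4, and the other 17 arrays were spread from -43.0 to 28.3. Before normalization, replicate 3 at 4 h had a trimmed mean signal of 100.3 and the other 5 sham arrays at these times of 149.9. All 8 measured neuron markers were above 16 on the sham arrays, and their summed signal ran from 13060 to 15959 at 4 h and from 15015 to 19164 at 12 h. Markers of radial glia, with sums of 17980.3 to 21011 at 4 h and 17843 to 20323 at 12 h, and of myelin, with sums of 12455 to 16963 and 16527 to 22906, were present too. Of 5 pituitary and hypothalamus markers, 3 lay at 16 on all 6 arrays.

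A measure of RNA integrity moved with time. The array carries probe sets against the 3' end and the 5' end of GAPDH, a glycolytic enzyme gene used as a control, and the 3'/5' ratio grows as transcripts are shortened. It was 1.56, 1.56 and 1.74 on the sham arrays at 4 h and 3.09, 3.99 and 5.80 at 12 h. Every 12 h array was thus above every 4 h array, with geometric means of 1.62 and 4.15. The exact two-sided permutation test gave p = 0.1, which is the smallest value that 3 against 3 arrays allow. The transected arrays had ratios of 1.94 to 2.15 at 4 h and 3.52 to 4.53 at 12 h. The spike-in controls, added RNAs of known kind, had geometric mean signals of 1443 and 1397 in the sham groups (exact permutation p = 0.8). The part of the GAPDH difference in the gene results below was not tested apart from time. Values from a fit with the log2 ratio as a covariate are given for the named genes whose call or direction they change. For some other genes, but not for all, they are given too. As the sham ratios at 4 h and 12 h did not overlap, that fit takes its slope from the spread within the groups of all 18 arrays. Its values therefore do not show a change apart from RNA integrity.

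**Figure D1:**
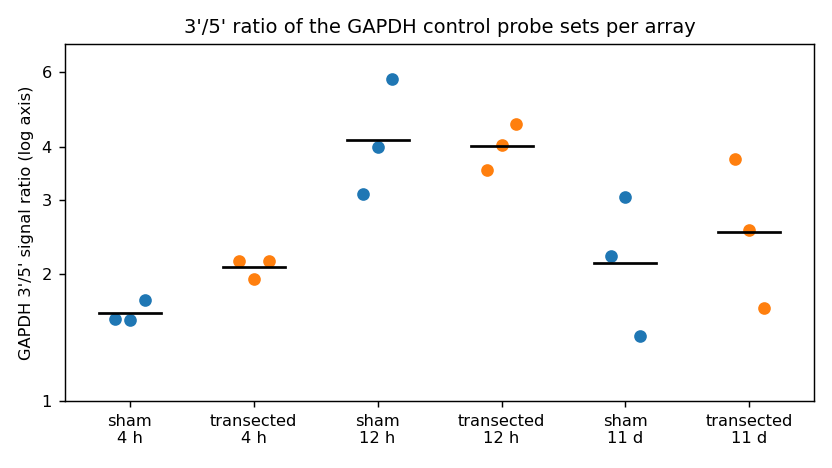
GAPDH 3'/5' signal ratio on each of the 18 arrays (log axis), grouped by operation and time, with bars at the geometric means. The 3 sham arrays at 12 h lie between 3.09 and 5.80, above all 3 at 4 h, which lie between 1.56 and 1.74.

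Few genes passed the test between 4 h and 12 h. Of 15502 probe sets, 4 had a Benjamini-Hochberg adjusted p under 0.05 in limma, 2 higher and 2 lower at 12 h (3 and 1 with each array scaled to one median), which is 0.0258% of those tested. At an unadjusted p under 0.05 there were 899 (5.80%), of which 505 were higher (3.26%) and 394 lower (2.54%), where 674.65 would be given by chance over the 13493 probe sets that were not at 16 on all 18 arrays. The heat shock factor hsf2, the nuclear receptor nr1d2b, the small gene abracl and 1 probe set without a gene name made up the 4.

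Hsf2 is one of the transcription factors that bind heat shock elements. Its signals were 150, 86.6 and 119 at 4 h and 256, 299 and 329 at 12 h. The groups did not overlap, and hsf2 rose by 1.34 ± 0.19 on the log2 scale (SE, n = 3 per group, adjusted p = 0.0440 in limma), or 2.53-fold. This SE, like those below, comes from a model fitted to all 6 groups of the series, not from the sham arrays alone. At 11 d the sham signals were 89.4, 122 and 97.4, all within the range at 4 h.

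Nr1d2b encodes a Rev-erb type receptor, a repressor within the clock. Its signals were 209, 226 and 192 at 4 h and 585, 458 and 494 at 12 h. The change of 1.29 ± 0.15 (adjusted p = 0.0288 in limma) had the smallest p of all probe sets, and replicates of both groups lay close together. The 11 d sham arrays, at 268, 234 and 316, lay between the earlier groups. A second nr1d2b probe set had a wide spread at 4 h, with signals of 55.4, 275 and 85.3, against 169, 149 and 137 at 12 h, and a change of 0.47 ± 0.84.

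Abracl, whose human counterpart is linked to actin dynamics and cell movement, was the named gene that fell. Its signals were 72.2, 80.6 and 81.6 at 4 h and 36.5, 46.7 and 32.7 at 12 h. It fell by 1.03 ± 0.14 on the log2 scale (adjusted p = 0.0421 in limma), and at 11 d it stood at 83.7, 92.8 and 102, above each 4 h array. A probe set for which the platform annotation gives no gene went from 113, 127 and 111 to 45.8, 41.7 and 60.2, a change of -1.26 ± 0.18 (adjusted p = 0.0440 in limma).

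These 4 calls depended on the settings of the fit. With only the brightest 10335 probe sets in the fit, none passed, with adjusted p in limma of 0.0627 for hsf2, 0.0627 for nr1d2b, 0.115 for abracl and 0.0646 for the unnamed probe set. With the GAPDH ratio as a covariate, nr1d2b alone passed, with a change of 1.73, while hsf2 had 1.04 (adjusted p = 0.381), abracl -0.84 (adjusted p = 0.376) and the unnamed probe set -1.58 (adjusted p = 0.206). Leaving out sham replicate 2 at 4 h gave 0 calls, leaving out replicate 3 at 4 h, replicate 1 at 12 h or replicate 3 at 12 h gave 1 each, leaving out replicate 2 at 12 h gave 3, and leaving out replicate 1 at 4 h gave 6. Over these 6 fits nr1d2b passed in 2 (limma adjusted p from 0.0348 to 0.120), abracl in 2 (0.0189 to 0.154), hsf2 in 1 (0.0121 to 0.139) and the unnamed probe set in 0 (0.0545 to 0.235). With the replicate number as a block, none passed, and deviations of same-numbered sham arrays at 4 h and 12 h correlated at only -0.16, -0.07 and 0.06. All 4 probe sets kept their direction in all 16 alternatives.

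Next to these stood 10 genes higher at 12 h that did not pass, picked by lowest unadjusted p over the brighter-than-median probe sets. Spdya, a Speedy protein that activates cyclin-dependent kinases, had signals of 1326, 1758 and 1400 at 4 h and 4448, 3901 and 3691 at 12 h. The groups did not overlap, but the change of 1.43 ± 0.22 had an adjusted p of 0.0675 in limma, and a second spdya probe set lay at 16 on all 6 arrays. Ubtfl, a relative of the RNA polymerase I factor Ubtf, went from 123, 93.4 and 144 to 278, 248 and 228, with an adjusted p of 0.0734. The others were ciarta, described with the clock, and, with adjusted p from 0.334 to 0.452, sec23a of the COPII vesicle coat, the Hsp70 nuclear import carrier hikeshi, the modifier gene sumo2b, the kinase map3k4, cln6a, carmil2 and rims2a. Carmil2, a regulator of actin capping protein, had a change of 1.17 ± 0.27, cln6a, an endoplasmic reticulum protein, 1.13 ± 0.25, and rims2a, a protein of the presynaptic release zone, 0.51 ± 0.12. Map3k4 had 0.61 ± 0.13 on this probe set and -0.10 ± 0.37 on its other one, which was 1.05 with the GAPDH covariate.

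The 10 genes lower at 12 h chosen in the same way did not pass either. Timm8b, a chaperone of mitochondrial protein import, had signals of 784, 847 and 569 at 4 h and 399, 300 and 275 at 12 h, a change of -1.17 ± 0.20 (adjusted p = 0.162 in limma). Aars1, the alanyl-tRNA synthetase, had a small and even difference, from 472, 488 and 503 to 376, 354 and 387 (-0.39 ± 0.07, adjusted p = 0.287 in limma). Eef1b2, a translation elongation factor subunit, had -0.80 ± 0.19, the phosphatase gene ptp4a3a -0.77 ± 0.19 and the tetraspanin gene tspan37 -0.89 ± 0.22. Tuba2, an alpha tubulin, had -1.31 ± 0.27 on the chosen probe set and -0.31 ± 0.23 on a brighter one, and cdpf1 had -0.80 ± 0.17 on the chosen one and -0.09 ± 0.25 and 0.60 ± 0.53 on the others. The remaining 3 of the 10, hmgcs1, fdft1 and insig1, belong to cholesterol synthesis.

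The clock list held values in both directions. The repressor genes ciarta, nr1d2b and bhlhe40 were higher at 12 h and the bmal genes lower, with nr1d2b alone passing. Other repressor genes did not all share this direction. Per2, per3 and nfil3-6 were higher too, and none of these passed. Cryptochrome genes went both ways, with cry3b the furthest fall of the list (-1.73), and nfil3-5 was lower. Of the 63 clock genes listed, 35 were measured, 18 of them higher and 15 lower at 12 h, with a median log2 change of 0.02 against 0 over all 8796 genes. This median was 0.23 on the deposited scale, where replicate 3 at 4 h is dimmer than the other sham arrays, and 0.37 with the GAPDH covariate. Of all genes, 0.0227% passed higher and 0.0114% lower. At an unadjusted p under 0.05, 4 members were higher and 2 lower, against 3.32% and 3.12% of all genes. The groups did not overlap for 6 higher and 3 lower members, against 4.98% and 5.35% of all genes.

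Ciarta, a repressor of the Bmal and Clock pair, had the largest log2 difference upward of all probe sets tested. Its signals were 152, 35.1 and 29.5 at 4 h and 562, 478 and 533 at 12 h. All 12 h arrays lay well above the 4 h arrays, and the 4 h arrays were spread widely, with replicate 1 highest. The change was 3.28 ± 0.69, or 9.68-fold, and did not pass over all probe sets (adjusted p = 0.358 in limma, 0.0646 to 0.761 over the alternatives). At 11 d the signals were 33.7, 39.7 and 141, again low on 2 arrays and higher on 1.

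Bhlhe40, a repressor induced by the clock and by many stimuli, went from 218, 201 and 261 to 395, 330 and 644, a change of 0.96 ± 0.24 (adjusted p = 0.452 in limma) with no overlap. Tefa, a PAR bZIP factor that carries clock output, had 1219, 332 and 696 at 4 h and 1293, 1324 and 1420 at 12 h. Replicate 1 at 4 h was close to the 12 h arrays, and the change was 1.04 ± 0.45 on this probe set and 0.65 ± 0.28 on its second one (neither passed). With the GAPDH ratio as a covariate the bhlhe40 change was 0.37 and the tefa change 0.0055. Per3 had a change of 0.63 ± 0.34 and cry1b of 0.90 ± 0.48, both with overlapping groups. Cry2 had 0.30 ± 0.82 on its brightest probe set and 0.93 ± 0.25 on a dimmer one. On the dimmer one the groups did not overlap, with signals of 40.9, 39.4 and 21.8 at 4 h and 63.1, 61.2 and 62.5 at 12 h. That change did not pass (adjusted p = 0.511 in limma).

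Of the activator genes, the bmal genes and npas2 lay lower at 12 h, and none of them passed. Bmal1a, a partner in the activating pair, had signals of 137, 483 and 292 at 4 h and 64.2, 107 and 123 at 12 h. The groups did not overlap, although replicate 1 at 4 h came close to the 12 h arrays, and the change of -1.50 ± 0.56 did not pass (adjusted p = 0.779 in limma). At 11 d bmal1a stood at 472, 282 and 266, near the higher 4 h arrays. Bmal1b had -0.79 ± 0.50, and its signals of 43.4, 119 and 129 at 4 h overlapped those of 29.5, 59.7 and 73.8 at 12 h. Npas2, a relative of Clock, went from 27.3, 113 and 58.4 to 16, 43.5 and 16, with 2 arrays at the lowest set signal. Its change of -1.34 ± 0.78 became 0.011 with the GAPDH covariate. The clock genes clocka and clockb had changes of -0.05 and -0.52, and of 1.19 and 1.21 with the GAPDH covariate.

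The cryptochromes did not move as one group. Cry3b had signals of 156, 299 and 157 at 4 h and 46.8, 67.4 and 63.8 at 12 h, with no overlap, and a change of -1.73 ± 0.56 (adjusted p = 0.702 in limma), which was -0.42 with the GAPDH covariate. Cry4 had -0.63 ± 0.31 and cry3a -0.25, while cry1a had 0.30 and cry-dash 0.47. With the GAPDH covariate cry4 had 0.51, cry3a 0.20 and cry-dash -0.17. Per2, which light induces in zebrafish, had overlapping groups, from 46.7, 116 and 88.9 to 91.7, 121 and 196, and changes of 0.72 ± 0.52 and 0.11 ± 0.57 on 2 probe sets. The repressor gene nfil3-5 had -0.77 ± 0.47 and nfil3-6 0.67. The remaining 15 members had changes from -0.42 to 0.46.

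**Figure D2:**
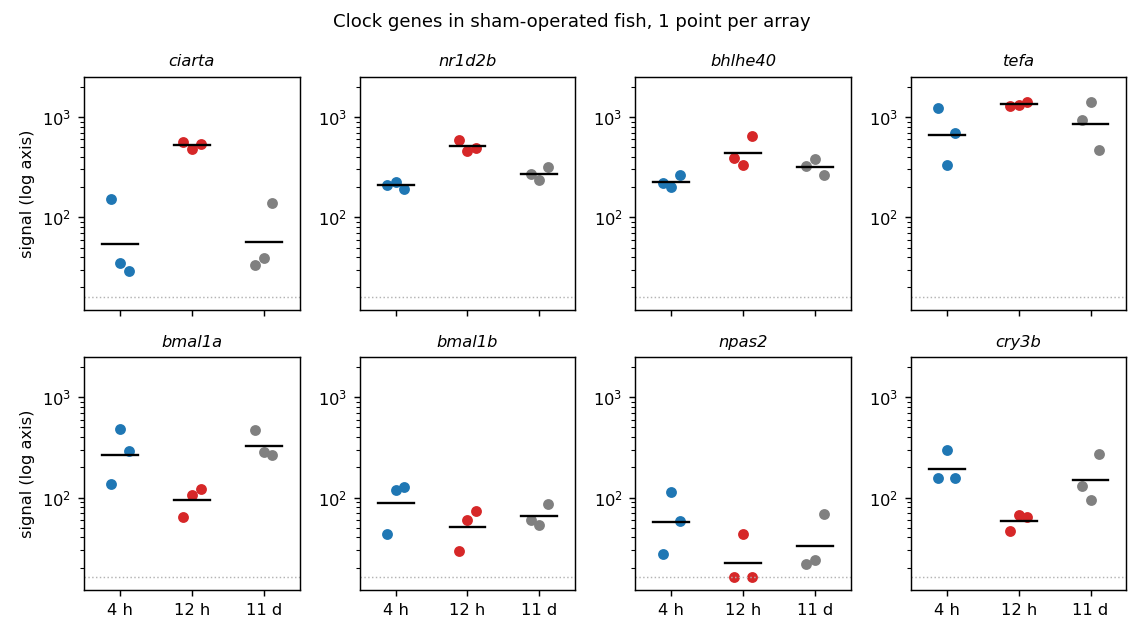
Signal of 8 clock genes (brightest probe set, log axis) on each sham array at 4 h, 12 h and 11 d, with bars at the geometric means and a dotted line at 16, the lowest set signal. The ciarta, nr1d2b, bhlhe40 and tefa points at 12 h all lie above those at 4 h, and for bmal1a and cry3b all lie below, while bmal1b and npas2 overlap.

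Cholesterol synthesis genes were lower at 12 h as a group, though none passed over all probe sets. Of the 34 genes listed, 13 were measured, 10 of them lower and 3 higher, with a median log2 change of -0.47 against 0 over all genes. At an unadjusted p under 0.05, 5 were lower and 0 higher, where 3.12% of all genes were lower, and the groups did not overlap for 5 lower members against 5.35% of all genes. This list, like the others, was chosen with earlier results of these data known, so its counts describe the members and do not test the list. The median over the list, taken per array relative to the mean of each gene, was 0.42, 0.25 and 0.67 at 4 h and -0.24, -0.14 and -0.02 at 12 h, so that each 12 h array lay below each 4 h array. The list median stayed below 0 in all 17 alternatives, from -1.09 with the GAPDH covariate to -0.29 at its smallest.

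Hmgcs1, which makes HMG-CoA at the start of the mevalonate steps, had signals of 778, 854 and 1087 at 4 h and 272, 332 and 506 at 12 h. The change was -1.33 ± 0.33 (adjusted p = 0.452 in limma), with no overlap. Fdft1, the squalene synthase that commits the pathway to sterols, went from 326, 523 and 283 to 166, 195 and 188 (-0.996 ± 0.24), also with no overlap. Fdps, the farnesyl diphosphate synthase just before it, had -0.70 ± 0.42 on one probe set and -0.98 ± 0.60 on the other.

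Of the later, sterol-ring enzymes, msmo1 and nsdhl were lower on every 12 h array. Msmo1, a methylsterol oxidase, had the largest difference of the list, from 661, 447 and 458 to 111, 167 and 275 (-1.58 ± 0.40, adjusted p = 0.469 in limma). Nsdhl, which acts after it on the same methyl groups, went from 76.3, 100.3 and 90.7 to 18.9, 32.9 and 61.8 (-1.39 ± 0.54). Both had groups that did not overlap, and both had their highest 12 h signal on replicate 3, the array with the highest GAPDH ratio. That is 1 array, and a link between these genes and the ratio was not tested. Cyp51, the sterol demethylase, gave unlike values on its probe sets: the brightest had 492, 337 and 716 at 4 h and 758, 105 and 881 at 12 h (-0.25 ± 1.003, and 0.73 without replicate 2 at 12 h), and dimmer ones had -0.79 ± 0.51 and -1.33 ± 0.46. Dhcr7, the last enzyme of one branch, had -0.29.

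The regulator insig1, itself a target of Srebp2, was lower on 3 probe sets, with changes of -1.11 ± 0.44, -1.07 ± 0.25 and -0.87 ± 0.36. On the brightest its signals were 236, 184 and 394 at 4 h and 90.9, 98 and 189 at 12 h, so that the highest 12 h array overlapped the lowest 4 h array. Insig2 had -0.47, and 0.37 with the GAPDH covariate. The 3 members that were higher, with values that did not pass, were ggps1, which feeds protein prenylation, at 0.60, acat2 at 0.19 and the sterol carrier stard4 at 0.11. Dimmer ggps1 probe sets had -0.47 ± 0.33 and 0.35 ± 0.17, the first lower and the second higher on every 12 h array. With the GAPDH covariate ggps1 had -0.32 on its brightest probe set and acat2 had -0.51.

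**Figure D3:**
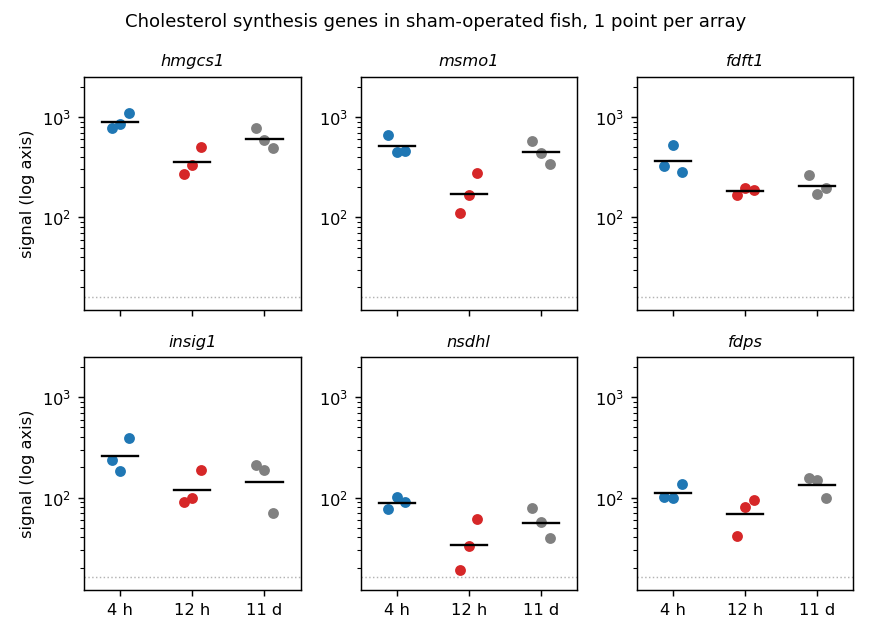
Signal of 6 cholesterol synthesis genes (brightest probe set, log axis) on each sham array at 4 h, 12 h and 11 d, with bars at the geometric means and a dotted line at 16. For hmgcs1, msmo1, fdft1, nsdhl and fdps all 3 points at 12 h lie below those at 4 h, and for insig1 1 point overlaps.

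Lists linked to surgery and handling had medians near 0, and their counts are read against 3.32% of all genes higher and 3.12% lower at an unadjusted p under 0.05. Of 26 glucocorticoid-responsive genes, 9 were higher and 15 lower, with a median log2 change of -0.12, and 0 had an unadjusted p under 0.05 in limma in either direction. The largest difference was in ddit4, an inhibitor of mTOR signalling, whose signals of 73.9, 27.9 and 56.7 at 4 h overlapped those of 75.9, 157 and 68.5 at 12 h. Of 41 immediate early genes, which neurons and glia switch on within minutes of stimulation, 24 were higher and 14 lower, with a median of 0.04 and again 0 at an unadjusted p under 0.05. Of 42 inflammation genes, 12 were higher and 29 lower, with a median of -0.11 and 1 lower at that level. With so few members these counts lie close to the shares over all genes.

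Heat shock factors and chaperones had values in both directions. Of 52 measured, 28 were higher and 21 lower, with a median of 0.02, which was -0.10 with the GAPDH covariate. At an unadjusted p under 0.05, 3 were higher and 3 lower, near the 3.32% and 3.12% of all genes. Hsp70.3, an inducible Hsp70, went from 70.15, 107 and 76.1 to 133, 162 and 160 with no overlap (0.86 ± 0.37, adjusted p = 0.827 in limma), and its change was -0.18 with the GAPDH covariate. Hspe1, the mitochondrial co-chaperone of Hsp60, went the other way, from 1689, 1068 and 1045 to 782, 609 and 447 (-1.05 ± 0.43, adjusted p = 0.824 in limma). Hsf1, the main activator of the heat shock response, had -0.88 ± 0.79, and 1.18 with the GAPDH covariate.

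Mitochondrial ribosome genes, which encode the subunits that translate mitochondrial messages, lay mostly lower, and none passed. Of 59 measured members, 44 were lower and 15 higher at 12 h, with a median log2 change of -0.20. At an unadjusted p under 0.05, 11 were lower and 1 higher, against 3.12% and 3.32% of all genes, and 18 were lower without overlap, against 5.35%. Mrpl49 went from 382, 580 and 398 to 275, 308 and 223 (-0.74 ± 0.24), mrpl35 had -0.69 ± 0.20 and mrpl52 -0.76 ± 0.29. None of the 3 passed, and mrpl49 had 0.018 with the GAPDH covariate. The list median was -0.0039 on the deposited scale, where replicate 3 at 4 h keeps its lower signal, and -0.06 with the GAPDH covariate.

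Smaller medians turned sign with the scaling. The proteasome list had 28 of 39 members lower with a median of -0.16, oxidative phosphorylation 45 of 75 with -0.10, and cytosolic ribosomal proteins 47 of 71 with -0.06. On the deposited scale these medians were 0.03, 0.11 and 0.11, and with the GAPDH covariate 0.03, 0.04 and 0.08. Without normalization, sham replicate 3 at 4 h keeps its lower trimmed mean of 100.3, against 149.9 on the other sham arrays at these times. Changes of probe sets above the floor are thus shifted upward on the deposited scale, in all lists. Splicing genes had 44 of 71 members higher with a median of 0.10, which was 0.29 on the deposited scale and -0.0018 with the GAPDH covariate.

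Markers of the cell types that the captured tissue can hold had no member that passed. Of the 8 neuron markers, 8 were higher at 12 h, where 3730 of all 8796 genes were. Their log2 changes ran from 0.01 to 0.80, with a median of 0.19 and none passing. At an unadjusted p under 0.05 in limma 1 was higher, against 3.32% of all genes. In transected fish 6 were higher at 12 h and 2 lower. Syt1a, the calcium sensor of synaptic vesicle release, went from 862, 1130 and 1320 to 1786, 1638 and 2311 (0.80 ± 0.30, adjusted p = 0.780 in limma) with no overlap, while on a second probe set the groups overlapped and the change was 0.29 ± 0.33. The synaptic vesicle list, which also holds syt1a and rims2a, had 13 of 27 members higher and 14 lower, with a median of -0.0088. Here 4 members were higher and 0 lower at an unadjusted p under 0.05 in limma, against 3.32% and 3.12% of all genes. The groups did not overlap for 4 higher and 0 lower members, against 4.98% and 5.35%. The furthest values of this list were those of syt1a, of the vesicle protein gene vamp1a (0.57 ± 0.20) and, downward, of the vesicle membrane gene scamp5a (-0.62). Radial glia markers had 4 members higher and 3 lower, myelin markers 3 and 2, erythrocyte markers 1 and 3, and endothelial markers 1 and 3. Cldnk, a myelin claudin, had -0.56 ± 0.35, and 0.20 with the GAPDH covariate.

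Among white blood cell markers, 1 neutrophil gene had a wide difference that did not pass. Of 11 microglia and leukocyte markers, 8 were higher and 3 lower, and their summed signal ran from 5011 to 8175 at 4 h and from 6062 to 8300 at 12 h. Mpx, the myeloperoxidase of neutrophil granules, went from 27.0, 40.3 and 64.3 to 216, 112 and 319, with no overlap, on 1 of its 4 probe sets. The change was 2.26 ± 0.55 (adjusted p = 0.452 in limma), and the other 3 probe sets lay at 16 on all 6 arrays. Lyz, the lysozyme gene of myeloid cells, had overlapping signals of 16, 61.2 and 49.8 at 4 h and 27.5, 177 and 132 at 12 h.

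The lowest values of the inflammation and the axon growth lists were those of anxa2a, a calcium-dependent membrane-binding protein, and of mvp, the main protein of vault particles. Anxa2a went from 1286, 1730 and 1418 to 805, 665 and 675 (-1.04 ± 0.35, adjusted p = 0.732 in limma), and mvp from 254, 257 and 194 to 141, 115 and 87.2 (-1.05 ± 0.29, adjusted p = 0.582 in limma). At 11 d anxa2a stood at 719, 654 and 494, near its 12 h values.

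**Figure D4:**
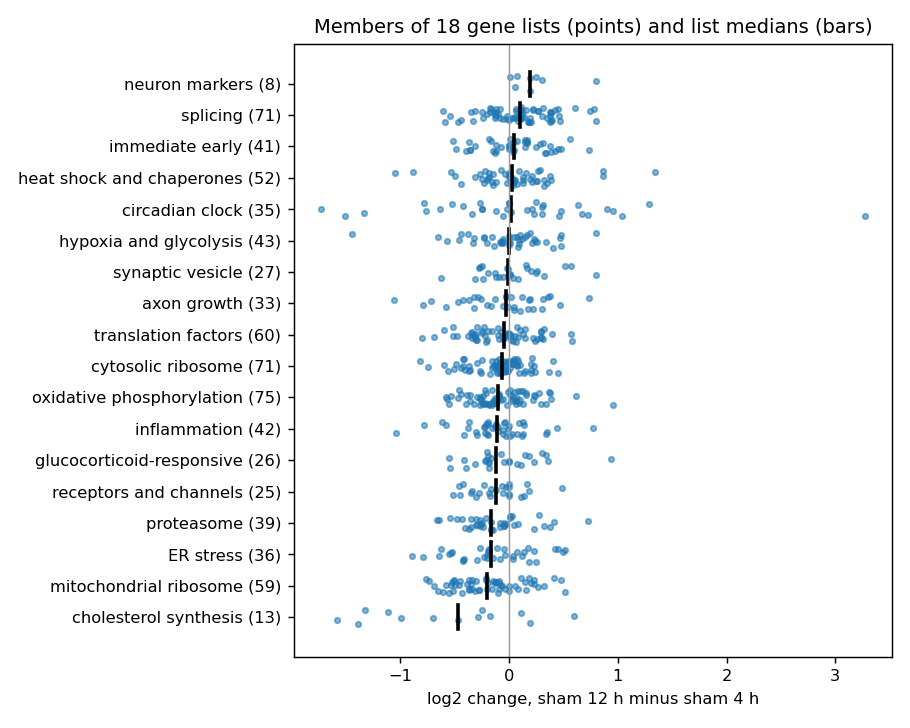
Log2 change from 4 h to 12 h in sham fish for the measured members of 18 gene lists (points, brightest probe set of each gene), with bars at the list medians and the number of measured members in parentheses. Cholesterol synthesis has the lowest median (-0.47), and the clock list has a median near 0 with the widest spread, from -1.73 to 3.28.

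The same interval in the transected fish gives a second look at the time difference on 6 other arrays. There, 191 probe sets passed (1.23%), 103 higher (0.664%) and 88 lower (0.568%), and 2115 had an unadjusted p under 0.05 (13.6%). The count of 191 was 51, 34 and 102 without transected replicate 1, 2 and 3 at 4 h, and 42, 69 and 282 without replicate 1, 2 and 3 at 12 h. The split was 142 higher and 3 lower on the deposited scale, and 97 and 179 with each array scaled to one median. On the deposited scale, transected replicate 3 at 4 h had a trimmed mean signal of 92.6, against 149.9 on the other transected arrays at these times. This shifts changes of probe sets above the floor upward on that scale. The counts of calls are no test of sham against transected fish. In the test of the difference between the sham and the transected change, 2 probe sets passed (0.0129%, both lower in sham), with 535 at an unadjusted p under 0.05 (3.45%). With same-numbered arrays of a time as a random block, 4 passed and 1224 had an unadjusted p under 0.05. Of the 899 probe sets at an unadjusted p under 0.05 in sham fish, 795 had the same direction in transected fish, 429 of them at that level too. Of the 191 transected calls, 179 had the same direction in sham fish. The share with the same direction over all probe sets was not taken. These counts therefore do not show more agreement than the arrays hold in general. Over 8796 genes the changes correlated at r = 0.49, across genes, which are not independent replicates. Same-numbered sham and transected arrays at 4 h deviated together from their group means, with correlations of 0.63, 0.38 and 0.26. At 12 h these correlations were 0.11, -0.01 and 0.14. The GAPDH ratio was higher at 12 h in both kinds of fish. With the shared deviations at 4 h, the sham and transected contrasts are not independent.

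Gene by gene, 3 of the 4 sham calls passed in transected fish in the same direction. Hsf2 changed there by 0.99 ± 0.19 (adjusted p = 0.0246 in limma), nr1d2b by 0.92 ± 0.15 (adjusted p = 0.0181) and abracl by -1.07 ± 0.14 (adjusted p = 0.00429), and the unnamed probe set had -0.76 ± 0.18 (adjusted p = 0.0660). Ciarta had 2.58 ± 0.69 (adjusted p = 0.0995), bmal1a -2.59 ± 0.56 (adjusted p = 0.0450) and cry3b -1.76 ± 0.56 (adjusted p = 0.166). Spdya had 2.11 ± 0.22 (adjusted p = 0.00140) and mpx 3.15 ± 0.55 (adjusted p = 0.0181).

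The cholesterol genes had larger downward values in transected than in sham fish. The list median was -1.32 there, with 11 of 13 members lower and 4 passing, against 0.796% of all genes passing lower. They were hmgcs1 with -2.33 ± 0.33, msmo1 with -2.42 ± 0.40, nsdhl with -2.89 ± 0.54 and fdft1 with -1.43 ± 0.24. No member passed the test of the difference between the sham and the transected change. Some genes had unlike values in the 2 kinds of fish, none passing that test. Per2 had 0.72 in sham and -1.29 in transected fish on its brightest probe set. Its second probe set did not share this, with 0.11 in sham and 0.79 in transected fish. Lyz had 1.24 in sham and -1.51 in transected fish, cln6a 1.13 and -0.25, and sumo2b 0.76 and 0.18.

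**Figure D5:**
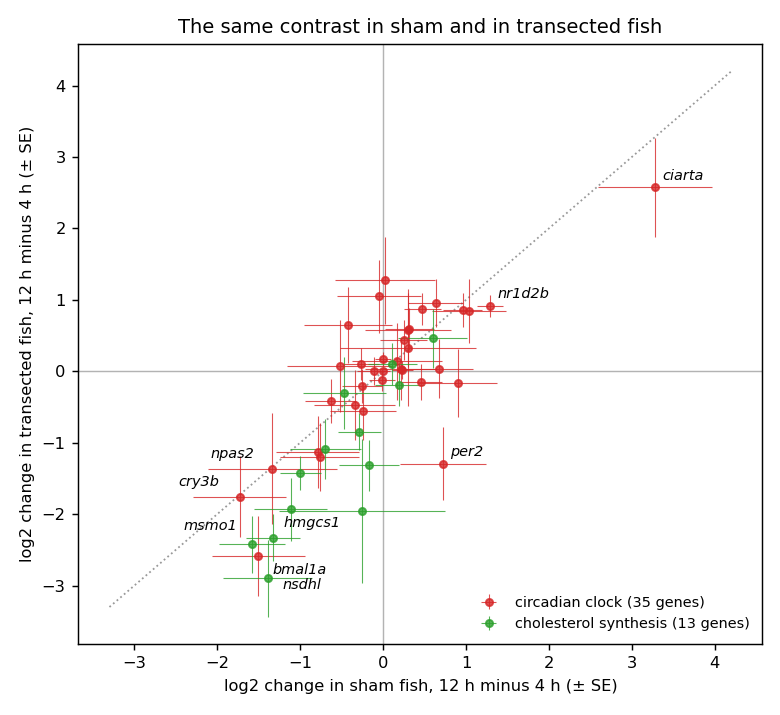
Log2 change from 4 h to 12 h in sham fish (x axis) against the same change in transected fish (y axis) for 35 clock and 13 cholesterol synthesis genes, with bars at ± 1 SE and a dotted line where both are equal. Ciarta lies at 3.28 and 2.58, hmgcs1 at -1.33 and -2.33, and per2 at 0.72 and -1.29, each on its brightest probe set.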

How the data were processed

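Per the labels, RNA of laser-captured tissue was extracted on small columns, amplified, and turned into biotin-labelled cDNA for Affymetrix arrays. The deposited values are probe-set intensities on a linear scale, 1 per array. Which program made them was not given in the sources used here. All 18 arrays were quantile normalized, a floor of 16 was set and log2 was taken, which left 27.5% to 27.6% of probe sets at the floor per array and 2009 on all 18. The 115 controls were not tested. A model with 6 group means (12 residual degrees of freedom) was fitted with limma 3.58.1 in R 4.3.3, with Benjamini-Hochberg adjustment over 15502 probe sets. Changes are 12 h minus 4 h, SEs come from this model, and the code was tested on simulated data.

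GEO's platform annotation named 1 gene for 10795 tested probe sets, more than 1 for 135, and no gene for 4572. Of 8796 genes, 8723 were found in a RefSeq table. Lists used the brightest probe set of each gene. No genome build is named, so no coordinates are given. Members and lists were chosen with earlier results of these data known, and several name-pattern matches outside a list's theme (mtnr1aa, sdhaf2, sdhaf3, sdhaf4, eef1akmt2, eef2k and eif4enif1) were left out after matching. Genes were named by a rule: up to 15 changes per direction passing without overlap; where fewer than 10 passed, the 10 of smallest unadjusted p brighter than the median; for each list the passing members and the 3 furthest in each direction; and all clock genes. Not all are given. Deviations of same-numbered sham arrays at 4 h and 12 h correlated at -0.16, -0.07 and 0.06. This gives no sign of pairing by number but does not exclude it. Alternatives covered normalization, floor, dim probe sets, arrays in the fit, blocks, the prior, the GAPDH covariate, each replicate left out and the mean over the probe sets of a gene. The number of arrays limits the precision.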

Additional observations from a re-analysis of the deposited data

Results flagged for a closer look

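The change from 4 h to 12 h differed between sham and transected fish for 2 probe sets by the test of the difference itself in limma. For cdk5rap2, a centrosome gene, the sham change minus the transected change was -1.40 (adjusted p = 0.000147). Its signals lay between 16 and 16.5 on all 6 sham arrays, between 16 and 19.4 on the transected arrays at 4 h, and at 48.1, 43.8 and 41.9 on those at 12 h. For a probe set without a gene name the difference was -0.24 (adjusted p = 0.0154), with all sham levels at or next to 16. Both signals were thus at the floor in sham fish, where the spread is close to 0. With only the brightest 10335 probe sets in the fit, this test gave 0 calls.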

How the results depend on the processing

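The count of 4 sham calls was 0 on the deposited scale, without the dimmest probe sets, with only the 6 arrays compared in the fit and with the replicate block, and 1 with the GAPDH covariate. With 1 array left out it ran from 0 to 6. The 191 transected calls were 41 with only the 6 arrays compared and 34 to 282 with 1 array left out. They split into 142 higher and 3 lower on the deposited scale, where the median of all probe sets was 0.12, and into 97 and 179 with median scaling. On the deposited scale transected replicate 3 at 4 h had the low trimmed mean of 92.6 given above. The 2 calls of the difference were 4 on the deposited scale, 1 with a floor of 8, 0 without the dimmest probe sets, 1 with only the arrays compared, 4 with a random block for arrays of the same time and number (correlation 0.42, 1224 against 535 at an unadjusted p under 0.05), 1 with the GAPDH covariate, and 1 to 13 with 1 array left out. The cause was not tested. The log2 difference of the GAPDH ratio, 1.36, was 1.27 on the deposited scale and 1.12 to 1.57 with 1 array left out. The ratio of the middle to the 5' GAPDH probe set gave 0.60, and actin in place of GAPDH gave 0.61. The 5' actin signal was 16 on the sham arrays at 12 h and at most 22.1 at 4 h, so the actin value rests on the 3' signal. Each of these had p = 0.1 by exact permutation. Of the 53 named probe sets followed through each alternative, all kept their direction in 13 of 16 alternatives. With the GAPDH covariate 5 of them reversed: npas2 (0.011), cry4 (0.51), hsp70.3 (-0.18), mrpl49 (0.018) and cldnk (0.20). Other named genes with the opposite sign under it, hsf1 among them, are given with their values above. Cyp51 reversed without sham 4 h replicate 3 (0.019) and without sham 12 h replicate 2 (0.73), and ran from -0.80 to 0.73 with 1 array left out. Sec23a passed with median scaling alone (0.49, adjusted p = 0.0212 in limma).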
